A study of Mus musculus with 20 samples.

Results

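The enzymes described here are 10 genes of liver steroid metabolism, out of 46603 identifiers in the deposited count files: the hydroxysteroid dehydrogenases Hsd3b2, Hsd3b3, Hsd3b5, Hsd3b7, Hsd11b1, Hsd17b2 and Hsd17b6, the steroid reductase Srd5a1, and the aldo-keto reductases Akr1c6 and Akr1d1. They were taken by name. Hsd3b5 was chosen by its measured fall in the knockout and after surgery, so its values are given as a description with no test, and the counts below are over the other 9. RNA was measured by bulk sequencing in liver of male mice on chow aged 2 months. The wild-type (WT) animals were C57BL/6J bought from a vendor. The knockouts (EedHepKO, written KO) were bred from mice with loxP sites around exons 3 and 6 of Eed and a Cre transgene under the albumin promoter, which is active in hepatocytes. Eed encodes a subunit of the histone methyltransferase PRC2. Per the labels, lobes 1, 2 and 3, removed during a partial hepatectomy (PHx) that takes most of the liver, gave the baseline samples, and lobes 4, 5 and 6 were collected afterwards, in each genotype from 1 animal at 30 h (WT replicate 1 and KO replicate 12), 2 at 40 h (WT 2 and 3, KO 10 and 11) and 2 at 48 h (WT 4 and 5, KO 7 and 8). Each of the 4 groups thus held 5 samples, 20 in all. Genotype cannot be told apart from colony in this design, nor the response to surgery from the difference between lobes.

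Steroid hormones and bile acids share a ring skeleton whose hydroxyl and keto groups and double bonds are set by dehydrogenases and reductases. In liver, most of these enzymes either take hormones made in the adrenal gland and gonads out of action or regenerate an active form, and a few act on the sterol intermediates from which bile acids are made. Several are male-biased in mouse liver under the pulsed pattern of growth hormone, and Hsd3b5 is a standard marker of that bias.

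Totals were 21634890 to 30461351 counts per library, and the precision of a level follows from its own count. CPM is a gene's count scaled to a TMM-adjusted library total of 1000000, and RPKM is CPM per kilobase of exon. Eed was 15.3 to 18.4 CPM at baseline and 14.6 to 23.2 after PHx in WT, against 3.83 to 7.52 and 2.75 to 5.82 in KO, so every KO library was below every WT library. Hepatocyte markers were abundant in every library of this liver tissue: 10 of them summed to 128138 to 149694 CPM in WT at baseline, 78692 to 124172 in WT after PHx, 79558 to 108763 in KO at baseline and 42665 to 97901 in KO after PHx. In each of the 4 comparisons of groups 3 of the 10 were called lower. Of all genes, 16% and 24.2% were called in either direction between genotypes at baseline and after PHx. In the PHx response 20.1% were called in WT and 29.5% in KO. The sums for stellate cells and macrophages had separate ranges in KO and WT at baseline, and those for cholangiocytes overlapped. The 8 stellate cell markers summed to 161.0 to 259 CPM in WT and 431 to 548 in KO at baseline, the 8 macrophage markers to 132 to 227 and 335 to 445, and the 8 cholangiocyte markers to 34.1 to 79.2 and 74.5 to 386. With the 10 baseline samples alone, 8 of 8 stellate and 8 of 8 macrophage markers and 5 of 6 tested cholangiocyte markers were called higher in KO. In that fit 6 of 10 hepatocyte markers were called lower, beside 39.5% of all genes called in either direction. Over all 20 samples 6 of 8 stellate, 3 of 8 macrophage and 1 of 7 tested cholangiocyte markers were higher in KO, beside 16%. After PHx the cholangiocyte sum was 35.2 to 257 CPM in WT and 138 to 816 in KO, the stellate sum 165 to 243 and 284 to 486, again without overlap, and the macrophage sum 66.2 to 284 and 71.8 to 299. In KO the macrophage sum after PHx was below its baseline range, with 4 of the 8 markers called lower and 1 higher, beside 29.5% of all genes. The 8 endothelial markers summed to 186 to 217 CPM at baseline and 85.9 to 159 after PHx in WT, and to 216 to 257 and 101 to 191 in KO, without overlap between baseline and PHx in either genotype. Of them Kdr and Oit3 were called lower after PHx in both genotypes, and Lyve1 higher in KO. None of the markers in those 5 lists was at 0 in all 5 libraries of a group. Their part in the results was not tested, and in bulk liver fewer hepatocytes and less RNA per hepatocyte cannot be told apart.

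Hsd3b2, Hsd3b3 and Hsd3b5 lie in 1 cluster on chromosome 3 (GRCm38, GENCODE M21): Hsd3b5 at 98618634 to 98630252, Hsd3b2 at 98709255 to 98724543 and Hsd3b3 at 98741523 to 98763127, all on the minus strand. The 250 bases before the RefSeq start sites (GRCm38.p6) of these neighbours are shown 5′ to 3′ on the minus strand. The window of Srd5a1, also on the minus strand, is added as the only member window rich in CpG. In Hsd3b5 and Hsd3b3 the capitals mark the longest exact stretch the windows share, and in Srd5a1 they mark each CG dinucleotide.
Hsd3b5, chr3:98645535-98645784: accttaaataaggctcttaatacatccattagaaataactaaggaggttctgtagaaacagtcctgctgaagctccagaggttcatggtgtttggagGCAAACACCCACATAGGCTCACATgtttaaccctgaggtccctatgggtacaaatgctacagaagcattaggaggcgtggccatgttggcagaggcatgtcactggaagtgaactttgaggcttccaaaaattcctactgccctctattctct
Hsd3b3, chr3:98763129-98763378: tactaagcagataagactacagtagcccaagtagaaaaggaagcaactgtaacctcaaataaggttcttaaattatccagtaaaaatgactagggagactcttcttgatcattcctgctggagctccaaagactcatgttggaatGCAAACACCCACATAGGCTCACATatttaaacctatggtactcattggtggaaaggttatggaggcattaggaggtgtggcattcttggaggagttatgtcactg
Hsd3b2, chr3:98724544-98724793: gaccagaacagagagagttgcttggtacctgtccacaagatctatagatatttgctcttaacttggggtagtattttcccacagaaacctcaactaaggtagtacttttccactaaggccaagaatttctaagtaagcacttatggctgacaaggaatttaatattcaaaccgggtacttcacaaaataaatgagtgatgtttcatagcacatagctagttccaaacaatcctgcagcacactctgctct
Srd5a1, chr13:69611464-69611713: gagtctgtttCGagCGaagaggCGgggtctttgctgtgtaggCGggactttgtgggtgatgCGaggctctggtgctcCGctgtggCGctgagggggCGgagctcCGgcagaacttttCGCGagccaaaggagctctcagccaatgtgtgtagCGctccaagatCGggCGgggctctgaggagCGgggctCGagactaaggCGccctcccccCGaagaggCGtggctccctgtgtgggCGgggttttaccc

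The Hsd3b3 and Hsd3b5 windows aligned over 202 columns with 74.8% identical bases. Their shared stretch of 24 bases began at position -105 of Hsd3b3 and -153 of Hsd3b5, counted from the start site, and among 32851 RefSeq promoter windows of the same length it occurred in 3 (0.00913%), all of Hsd3b3 or Hsd3b5. Hsd3b2 shared no exact stretch longer than 8 bases with either. RefSeq puts the start of Hsd3b5 15282 bases upstream of the GENCODE start, and that of Hsd11b1 21715 bases inside the GENCODE gene, so for these genes the window depends on the annotation. The other matched starts lay within 37 bases of the GENCODE start. Windows were found for 9 of the 10 members.

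CpG content set 1 window apart. The Srd5a1 window held 20 CG dinucleotides, a number reached by 17.9% of all windows, and Hsd11b1 held 6, reached by 50.4%. The other 7 windows held 0 or 1. In all, 4 motifs were searched on both strands, with no overlap between them in the members. The STAT5 motif TTCNNNGAA, the site bound downstream of growth hormone and held by 7.02% of all windows, occurred in Hsd3b7 at position -21. The half-site AGGTCA of nuclear receptors, held by 14% of windows, occurred in Akr1d1 at positions -232 and -210. The C/EBP palindrome TTGCGCAA (0.164% of windows) and the HNF1 core GTTAAT (6.43%) occurred in none of the 9. A match describes letters in this window only.

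Per kilobase of exon, Akr1c6 was the most abundant member in WT liver at baseline, at 695 ± 31.8 RPKM (SD, n = 5), followed by Hsd3b5 at 360.2 ± 23.8. Hsd3b7 at 222 ± 19.8, Hsd11b1 at 187 ± 24.4 and Hsd17b2 at 154 ± 18.9 came next, and neighbours in that order differed by less than the sum of their SDs. Hsd17b6 stood at 114 ± 14.8 RPKM. Akr1d1 at 66.6 ± 7.60 and Hsd3b3 at 60.6 ± 2.32 did not differ beyond their spread, and below them came Srd5a1 at 41.3 ± 2.55 and Hsd3b2 at 20.3 ± 2.87. The order was not kept in the other groups. Hsd3b5 ranked 2 in WT at baseline, 9 in KO at baseline, 8 in WT after PHx and 10 in KO after PHx, whereas Hsd17b2, ranked 5 in WT at baseline, ranked 1 in KO after PHx at 113 ± 27.9 RPKM, above Hsd17b6 at 67.5 ± 56.4, a gap smaller than the sum of their SDs. The plot of RPKM by gene shows this reordering.

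**Figure D1:**
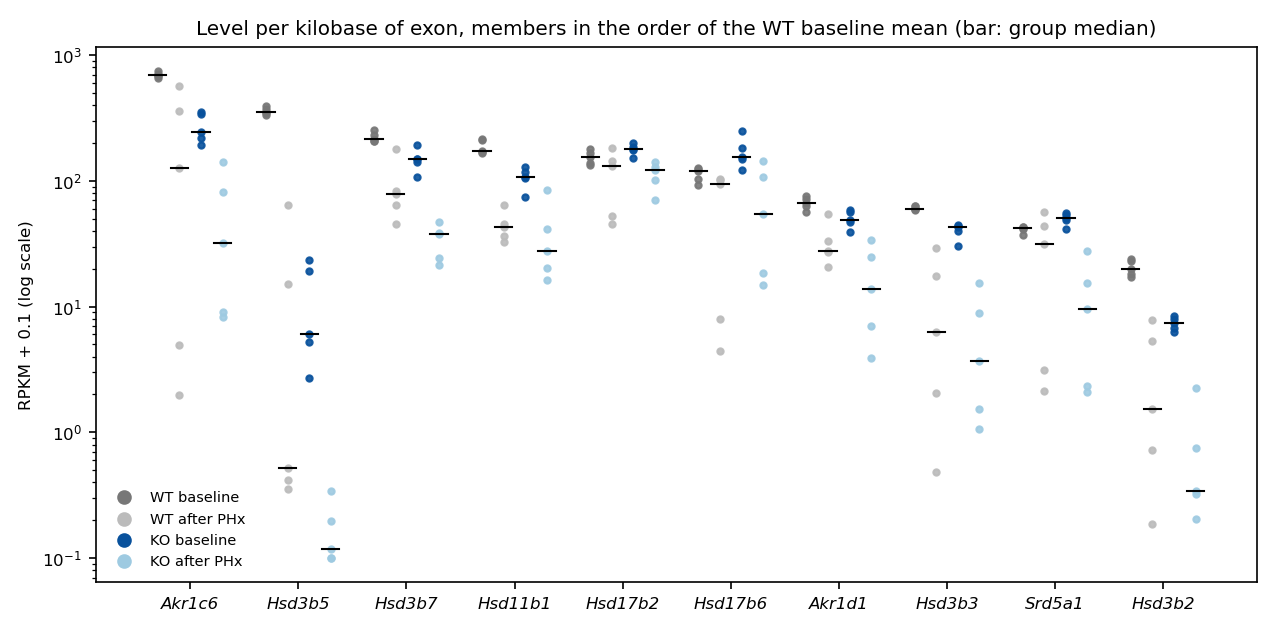
Level of the 10 members per kilobase of exon (RPKM + 0.1, log scale) in the 4 groups, 1 point per library and a bar at the group median, in the order of the WT baseline mean. Baseline points sit close together, and points after PHx spread widely, Akr1c6 in WT from 1.88 to 568 RPKM.

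Hsd3b5, a reductase of keto steroids found in male mouse liver, was abundant only in WT at baseline. In WT at baseline the 5 libraries held 521, 576, 549, 531 and 612 CPM in replicates 1 to 5. In KO at baseline they held 4.05, 36.0, 9.21, 29.3 and 7.98 CPM in replicates 7, 8, 10, 11 and 12, a mean of 3.10% of the WT baseline mean, and the values of every gene follow this order of replicates. After PHx the WT libraries held 98.8, 0.391, 0.647, 0.496 and 23.4 CPM. The 30 h library (replicate 1) and 1 of the 48 h libraries (replicate 5) kept the most Hsd3b5. The other 3 WT libraries, with 9, 17 and 14 counts, were below 1 CPM and below every KO baseline library. In KO after PHx the gene was read 14 times in all 5 libraries together: 0.150, 0, 0, 0.0278 and 0.379 CPM. The libraries of replicates 8 and 10 had no count, which allows up to 0.0657 and 0.114 CPM by counting error alone. Log2 fold changes were -5.01 for KO against WT at baseline, -8.00 after PHx, -4.50 for PHx against baseline in WT and -7.48 in KO. They rested in part on single libraries: without WT replicate 1 after PHx the difference after PHx was -6.02 and the WT response -6.48, and without KO replicate 12 after PHx the difference was -9.02 and the KO response -8.50. With the mouse as a block, which leaves out WT replicate 1, the WT response of Hsd3b5 was -8.89, and the difference of the KO and WT responses turned from -2.98 to 1.66. WT at baseline and KO after PHx each overlapped no other group, the latter by a narrow gap (0.379 against 0.391 CPM in the lowest WT library after PHx).

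**Figure D2:**
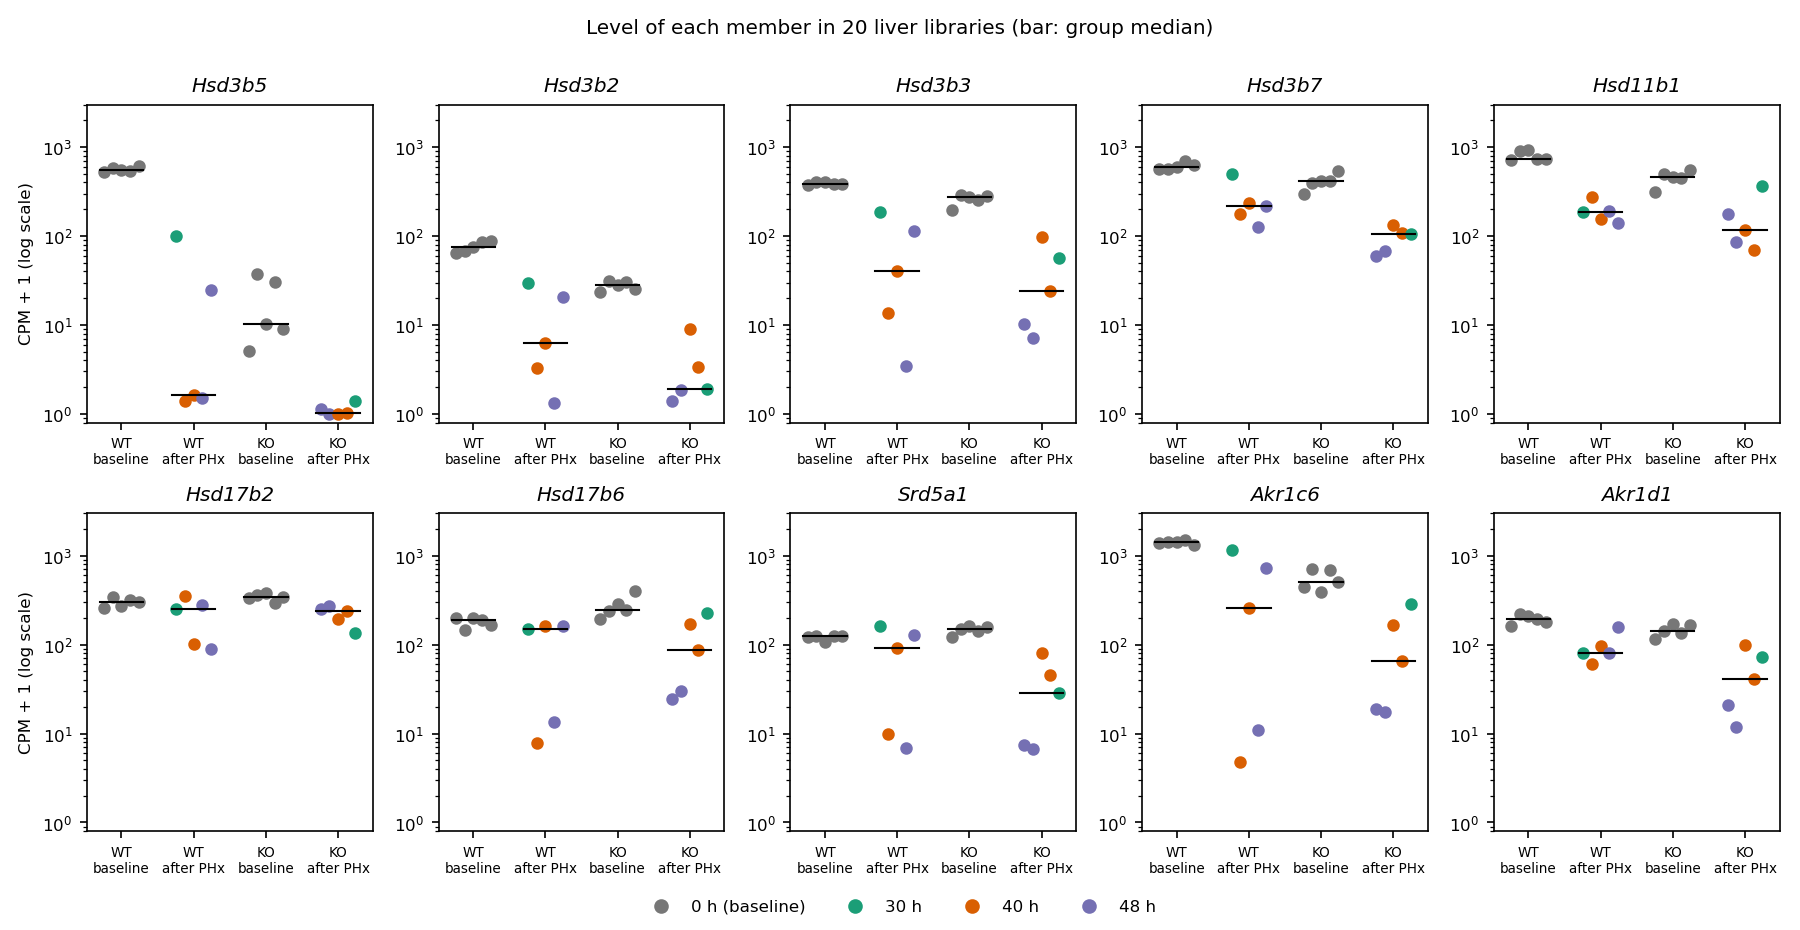
Level of each member in the 20 libraries (CPM + 1, log scale), 1 panel per gene and 1 column per group (KO is EedHepKO), coloured by hours after surgery, with a bar at the group median. Hsd3b5 falls from 521 to 612 CPM in WT at baseline to 0.379 CPM or less in KO after PHx, while Hsd17b2 stays between 87.1 and 382 CPM in all libraries.

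The cluster neighbours Hsd3b3, a liver and kidney dehydrogenase and isomerase of the same family, and Hsd3b2 had separate ranges in KO and WT at baseline. Hsd3b2 held 63.6, 66.4, 73.4, 84.1 and 87.6 CPM in WT and 22.7, 30.51, 27.2, 29.2 and 24.6 in KO. Hsd3b3 held 371, 406, 399.9, 379 and 382 CPM in WT and 194, 286, 272, 252 and 279 in KO. For both genes the highest KO value was below the lowest WT value. After PHx the WT libraries held 28.7, 2.31, 5.25, 0.319 and 19.4 CPM of Hsd3b2 and the KO libraries 0.390, 0.835, 8.01, 2.39 and 0.899. Hsd3b3 was at 185, 12.6, 39.6, 2.48 and 112 CPM in WT and 9.14, 6.15, 97.6, 22.96 and 55.9 in KO after PHx. No library after PHx reached the baseline range of its genotype for either gene, and the genotypes overlapped. Hsd3b2 fell after PHx in WT (log2 fold change -2.75 ± 0.80 (SE), adjusted p = 0.02) and in KO (-3.43 ± 0.83 (SE), adjusted p = 0.00613). Over the fits that left out a single library it was -3.45 to -2.37 in WT and -4.56 to -3.13 in KO, called in all of them. Hsd3b3 fell in WT as well (-2.46 ± 0.79 (SE), adjusted p = 0.0339) and in KO (-2.75 ± 0.80 (SE), adjusted p = 0.0165).

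The fall of Hsd3b3 in WT lay near the threshold: it was not called in 8 of the 10 fits that left out 1 of the WT libraries (adjusted p = 0.0116 to 0.0732 over the 10), the exceptions being those without replicate 1 or 5 after PHx, nor with the WT samples alone (adjusted p = 0.0531). With the mouse as a block its log2 fold change in WT was -4.26 ± 0.93 (adjusted p = 0.0139). Hsd3b1, Hsd3b4 and Hsd3b6, the other listed family members with counts, were hardly read. Hsd3b1 was at most 0.623 CPM in any library, Hsd3b6 at most 0.114 and Hsd3b4 at most 0.04999. The adrenal cortex markers that accompany the family in steroid-making tissue summed to 0.3602 to 1.755 CPM in WT and 0.4695 to 1.183 in KO at baseline, and to at most 21.01 CPM after PHx. Of the 6, Mc2r was at 0 in every library, and Cyp21a1 rose after PHx in WT (adjusted p = 0.00716) and in KO (adjusted p = 0.0146). Hsd3b2 and Hsd3b3 share 99 and 281 exon bases with the opposite-strand gene Zfp697, which was 0.720 to 13.4 CPM over all libraries, and 8.28%, 4.67% and 7.79% of the 100-base stretches of Hsd3b2, Hsd3b3 and Hsd3b5 transcripts occur in transcripts of other genes.

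Hsd3b7 (chromosome 7, 127800604 to 127803802, plus strand) and Akr1d1 (chromosome 6, 37530173 to 37568815, plus strand) act on bile acid intermediates: Hsd3b7 oxidises the hydroxyl group of the sterol ring early in the pathway, and Akr1d1 reduces the ring double bond that follows, in steroid hormones as well. Hsd3b7 held 570.3, 573, 592, 701 and 634 CPM in WT and 296, 390.1, 415, 414 and 531 in KO at baseline. After PHx it held 499, 176, 231, 126 and 217 CPM in WT and 58.6, 67.3, 130.5, 107 and 105 in KO. The WT library at 30 h stood above the rest after PHx, and the lowest WT library (126 CPM) was just below the highest KO library (130.5 CPM). After PHx Hsd3b7 was lower in KO than in WT by 2.67-fold (log2 fold change -1.42 ± 0.30 (SE), adjusted p = 0.00182), the only member called in that comparison by the edgeR fit of 4 group means, and it was called in all 10 fits without 1 library (adjusted p = 0.000848 to 0.00747). It fell after PHx in WT (log2 fold change -1.30 ± 0.30 (SE), adjusted p = 0.00528) and in KO (-2.13 ± 0.30 (SE), adjusted p = 0.000331). Of the Hsd3b7 transcript stretches of 100 bases, 72.0% also occur in the overlapping models Gm49388 (same strand) and 9430064I24Rik (opposite strand), so its counts depend on how such reads were assigned, which is not given in the sources used here.

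Akr1d1 held 163, 218, 208, 194 and 181 CPM in WT and 114, 142, 169, 136 and 163 in KO at baseline, where the upper KO values overlapped the lowest WT value. After PHx the WT libraries held 78.8, 59.8, 96.2, 79.4 and 157 CPM and the KO libraries 19.9, 10.9, 97.1, 39.9 and 71.2. The KO libraries at 48 h (replicates 7 and 8) were the lowest, and no library after PHx reached its genotype's baseline range. The fall was called in KO (log2 fold change -1.60 ± 0.41 (SE), adjusted p = 0.00795) and not in WT (-1.03 ± 0.40 (SE), adjusted p = 0.0738), although the groups did not overlap in either. With the WT samples alone the fall in WT was called as well (-0.99 ± 0.23 (SE), adjusted p = 0.0122). The difference between these responses was not called (-0.57 ± 0.56 (SE), adjusted p = 0.716).

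Hsd11b1 (chromosome 1, 193221634 to 193264075, minus strand), which reduces the inactive keto form of glucocorticoids to the active hormone, fell in both genotypes. It held 706, 897, 918, 728 and 725 CPM in WT and 315, 495, 454, 444 and 551 in KO at baseline, without overlap. After PHx it held 184, 273, 155, 191 and 138 CPM in WT, with no library near the baseline range. In KO after PHx it held 177, 84.9, 117, 68.4 and 361 CPM, and the 30 h library (replicate 12) stayed within the KO baseline range. Hsd11b1 fell 4.23-fold in WT (log2 fold change -2.08 ± 0.35 (SE), adjusted p = 0.000555) and 2.80-fold in KO (-1.48 ± 0.34 (SE), adjusted p = 0.00455). After PHx the genotypes overlapped and were not called different (-0.22 ± 0.33 (SE), adjusted p = 0.671), except without KO replicate 12, where the log2 fold change was -0.75 (adjusted p = 0.0381).

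Of 7 genes of glucocorticoid handling listed beside it (H6pd, Nr3c1, Nr3c2, Serpina6, Tsc22d3, Fkbp5 and Por), 2 rose and 2 fell after PHx in WT (median of the 7 -0.72), and 2 rose and none fell in KO (median -0.26), beside 20.1% and 29.5% of all genes called in either direction. Fkbp5, a target of the glucocorticoid receptor, rose by 2.86 ± 0.54 (SE) on the log2 scale in WT (adjusted p = 0.00146) and by 2.82 ± 0.54 in KO (adjusted p = 0.00173). Tsc22d3, another target of the receptor, was not called (-1.02 ± 0.51 in WT, adjusted p = 0.164, and 0.03 ± 0.50 in KO, adjusted p = 0.97). Por, the P450 reductase, rose by 2.26 ± 0.36 in WT (adjusted p = 0.000424) and by 1.57 ± 0.36 in KO (adjusted p = 0.00432). In WT the receptor Nr3c1 fell (-0.96 ± 0.20, adjusted p = 0.00248), as did the binding globulin gene Serpina6 (-3.08 ± 0.89, adjusted p = 0.0197). H6pd, which makes the cofactor that Hsd11b1 uses, was lower in KO after PHx (-0.53 ± 0.17, adjusted p = 0.0281), and Nr3c1 was lower in KO at baseline (-0.64 ± 0.19, adjusted p = 0.0294).

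Hsd17b2 (chromosome 8, 117701904 to 117759027, plus strand), which oxidises estradiol and testosterone to less active forms, had the smallest ratio of highest to lowest CPM over the 20 libraries among the members. It held 254, 342, 268, 319.9 and 297 CPM in WT and 336, 359.7, 382, 290.3 and 343 in KO at baseline. After PHx it held 252, 352, 100.4, 276 and 87.1 CPM in WT and 248.9, 270.4, 195, 235 and 134 in KO. In WT after PHx, replicates 3 and 5 were low and replicate 2 was above the WT baseline range, whereas in KO every library after PHx was below every baseline library. No comparison called it: KO against WT was 0.21 ± 0.30 (SE), adjusted p = 0.682 at baseline, with a 95% interval of -0.41 to 0.83 on the log2 scale, and 0.02 ± 0.30 (SE), adjusted p = 0.967 after PHx, with an interval of -0.60 to 0.64. The response was -0.47 ± 0.30 (SE), adjusted p = 0.276 in WT and -0.66 ± 0.30 (SE), adjusted p = 0.0977 in KO, and in the fit of the KO samples alone the latter was called (adjusted p = 0.0445).

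Hsd17b6 (chromosome 10, 127990936 to 128007611, minus strand), a dehydrogenase of androgen metabolites related to retinol dehydrogenases, held 197, 146, 199, 188 and 164 CPM in WT and 191, 235, 288, 245 and 395 in KO at baseline. Of the KO libraries 4 were above the WT range and 1 was within it. After PHx the WT values split, at 149, 6.87, 161, 12.4 and 159.7 CPM, and the KO values were 23.2, 28.9, 168, 85.2 and 226. WT replicates 2 and 4 and KO replicates 7 and 8 were far below the others, and the remaining 3 WT libraries were within the WT baseline range. With this spread neither response was called (WT -0.87 ± 0.68 (SE), adjusted p = 0.39 and KO -1.35 ± 0.69 (SE), adjusted p = 0.138). Of its transcript stretches of 100 bases, 8.77% also occur in transcripts of the related Rdh genes.

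Srd5a1 (chromosome 13, 69573449 to 69611442, minus strand), the reductase that turns testosterone into dihydrotestosterone, held 121, 122, 107, 125 and 125 CPM in WT and 120.4, 148, 161, 143 and 156 in KO at baseline, where the groups overlapped only through the lowest KO library. After PHx the WT libraries held 163, 8.87, 91.0, 5.88 and 126 CPM and the KO libraries 6.503, 5.75, 79.5, 44.5 and 27.7. In WT, replicates 1 and 5 were above the baseline range while replicates 2 and 4 were far below it. All KO libraries after PHx were below the KO baseline range. The fall was called in KO (log2 fold change -2.15 ± 0.73 (SE), adjusted p = 0.0333) and not in WT (-0.60 ± 0.70 (SE), adjusted p = 0.586), and the difference between the responses was not called (-1.55 ± 1.00 (SE), adjusted p = 0.523). The KO call was lost in 7 of the 10 fits without 1 KO library (adjusted p = 0.00857 to 0.0815), namely those without replicate 8, 10, 11 or 12 at baseline or 7, 8 or 12 after PHx. The overlapping model Gm17108 was at most 0.650 CPM.

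Akr1c6 (chromosome 13, 4434306 to 4457877, plus strand), an aldo-keto reductase that acts on estrogens and androgens, had the highest level per length in WT at baseline and a wide spread after PHx. It held 1397, 1407, 1425, 1508 and 1328 CPM in WT and 441, 713, 394, 693 and 501 in KO at baseline, a KO mean of 38.8% of the WT mean with no overlap. After PHx it held 1156, 3.83, 258, 9.86 and 734 CPM in WT and 18.1, 16.6, 166, 65.0 and 288 in KO. In WT the highest library was 302 times the lowest, resting on 26502 and 88 counts, and in KO 17.4 times. No library after PHx reached its genotype's baseline range. Neither response was called (WT -1.71 ± 0.97 (SE), adjusted p = 0.225 and KO -2.31 ± 0.99 (SE), adjusted p = 0.0819), but the KO response was called with the KO samples alone (-2.25, adjusted p = 0.0445), with hours after surgery in the fit (-2.77, adjusted p = 0.0406), without KO replicate 12 after PHx (-3.05, adjusted p = 0.0455) and without both 30 h samples (-3.05, adjusted p = 0.0385), an alternative added after the data were seen.

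At baseline, the comparison of KO with WT addresses the effect of the knockout in resting liver. The fit of all 20 samples called none of the 9 members, while it called 16% of 14661 genes tested. The members' median log2 fold change was -0.59, against -0.03 over all genes tested. With library size alone as the scaling it was -0.13, against 0.45 over all genes. At an unadjusted p under 0.05 in this edgeR fit across all genes, 1 member passed (Hsd11b1), and DESeq2 called none. This fit shares 1 estimate of the spread among groups whose spread differed: the SD of log2(CPM + 1) had a median over the 9 members of 0.167 in WT and 0.228 in KO at baseline, and 1.85 in WT and 1.25 in KO after PHx. With the 10 baseline samples alone, 8 of the 9 members were called, beside 39.5% of 13286 genes tested. Akr1c6 (-1.34 ± 0.17 (SE), adjusted p = 6.23e-05), Hsd3b2 (-1.46 ± 0.12 (SE), adjusted p = 2.98e-06), Hsd11b1 (-0.79 ± 0.15 (SE), adjusted p = 0.000992), Hsd3b3 (-0.57 ± 0.11 (SE), adjusted p = 0.00139), Hsd3b7 (-0.56 ± 0.13 (SE), adjusted p = 0.00507) and Akr1d1 (-0.39 ± 0.12 (SE), adjusted p = 0.0195) were lower in KO in that fit. Hsd17b6 (0.62 ± 0.17 (SE), adjusted p = 0.0111) and Srd5a1 (0.30 ± 0.10 (SE), adjusted p = 0.024) were higher, and Hsd17b2 was not called (0.23 ± 0.11 (SE), adjusted p = 0.105). The log2 fold changes of the 9 members were nearly the same in both fits, as the plot of differences shows. Groups did not overlap for 5 of the 9 members, all lower in KO (Hsd3b2, Hsd3b3, Hsd3b7, Hsd11b1 and Akr1c6), beside 27.9% of all genes tested in either direction.

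**Figure D3:**
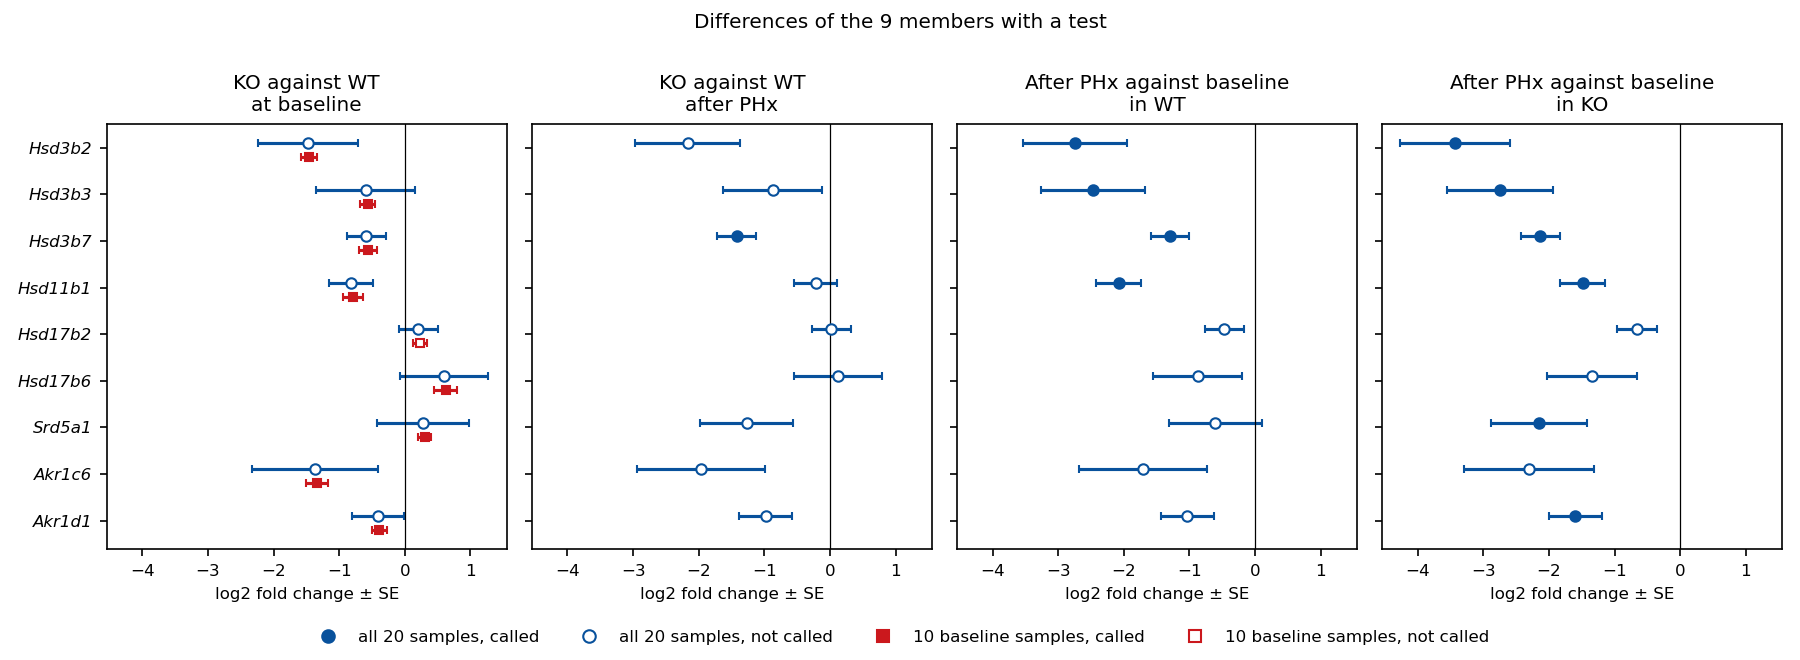
Log2 fold change ± SE of the 9 members with a test in 4 comparisons (KO is EedHepKO), circles for the fit of all 20 samples and squares for the 10 baseline samples, filled where the adjusted p was under 0.05. At baseline 8 of 9 squares and 0 of 9 circles are filled at nearly the same fold changes, and after PHx the filled circles all lie left of 0.

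After PHx, 1 of the 9 members (Hsd3b7) was called between genotypes, lower in KO, beside 24.2% of all genes tested. The members' median log2 fold change was -0.98, against -0.01 over all genes. All 9 members overlapped between genotypes, whereas 10% of all genes tested did not. The largest differences were those of Hsd3b2 (-2.17 ± 0.80 (SE), adjusted p = 0.0534) and Akr1c6 (-1.97 ± 0.98 (SE), adjusted p = 0.152). Over the fits that left out a single library they were -3.30 to -1.46 and -2.70 to -1.19. The count of members called rose to 2 with DESeq2 or without WT replicate 2 or 4 (Hsd3b2 added), to 2 with hours after surgery in the fit (Akr1d1 added), to 2 without KO replicate 12 (Hsd11b1 added) and to 3 without KO replicate 10 (Akr1d1 and Hsd3b2 added).

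The responses to PHx were downward wherever they were called. In WT 4 of the 9 members fell (Hsd3b2, Hsd3b3, Hsd3b7 and Hsd11b1) and none rose, beside 20.1% of all genes tested in both directions, and the members' median was -1.30, against 0.04 over all genes. Groups did not overlap for 6 of the 9 in WT, all lower after PHx, beside 17.8% of all genes. In KO 6 of the 9 fell (these 4, Akr1d1 and Srd5a1), beside 29.5% of all genes, with a median of -2.13 against 0.10. Groups did not overlap for 7 of the 9 in KO, again all lower after PHx, beside 13.9% of all genes. The KO samples alone called 8 of the 9, beside 20.6% of 13952 genes tested, adding Akr1c6 (adjusted p = 0.0445) and Hsd17b2. The WT samples alone called 4 of the 9, beside 24.1% of 12775 genes, with Akr1d1 gained (adjusted p = 0.0122) and Hsd3b3 lost (adjusted p = 0.0531). The responses share their samples with the comparisons of genotype above. The difference between the KO and WT responses was called for 0 of the 9 members, beside 0.389% of all genes, with a median of -0.57 against 0.00. The direction of that median turned with the mouse as a block, which leaves out WT replicate 1 and gave 0.25. That fit lacks the only WT library at 30 h and keeps the KO library at 30 h. Leaving out WT replicate 1 after PHx, with no block, gave 0.18 for Akr1c6, 0.0207 for Hsd3b2 and 0.47 for Hsd3b3. No other tested member changed sign there, and the part of the block itself was not tested. The block also moved WT responses further below 0, to -4.78 for Akr1c6, -4.45 for Hsd3b2, -2.08 for Srd5a1 and -2.15 for Hsd17b6 on the log2 scale. Of these 4, Hsd3b2 was called (adjusted p = 0.00999) and the other 3 were not, as without the block. At an unadjusted p under 0.05, 0 of the 9 passed in edgeR, and DESeq2 called 0. Hsd3b7 had the lowest p of the 9, with a difference of -0.83 on the log2 scale and a 95% interval of -1.69 to 0.03.

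Library by library, the members after PHx did not move as 1 block. As a share of the baseline mean of the same genotype, Akr1c6 was 81.8% at 30 h, 0.271% and 18.3% at 40 h and 0.698% and 52.0% at 48 h in WT replicates 1 to 5. Srd5a1 was 136%, 7.39%, 75.8%, 4.90% and 105% in these libraries, and Hsd17b6 83.4%, 3.84%, 90.0%, 6.91% and 89.2%. Replicates 2 and 4 were low for all 3 genes, and replicate 2 (40 h) was closer to replicate 4 (48 h) than to replicate 3 (40 h). Hsd11b1 was in the opposite order, at 34.3% and 24.05% in replicates 2 and 4 and 17.3% to 23.1% in the other 3, a narrower range. In KO, replicates 7 and 8, both at 48 h, had the lowest shares of Akr1c6 (3.29% and 3.02%), Srd5a1 (4.47% and 3.95%) and Hsd17b6 (8.55% and 10.7%). At baseline the 10 cell cycle genes listed, Plk1 and Ccna2 among them, summed to 24.9 to 27.1 CPM in WT and 50.1 to 157 in KO. Of the 10, 3 were called higher in KO over all 20 samples and 10 over the 10 baseline samples, beside 16% and 39.5% of all genes. In the response to PHx 10 of the 10 were called higher in WT and 0 in KO, beside 20.1% and 29.5% of all genes. After PHx they summed to 642, 30.6, 92.3, 42.8 and 1143 CPM in WT replicates 1 to 5 and to 51.3, 68.0, 939, 168 and 43.8 in KO replicates 7, 8, 10, 11 and 12 after PHx. The WT libraries with the highest cell cycle sums (1 and 5) had the highest Akr1c6, Hsd3b2, Hsd3b3, Hsd3b5 and Srd5a1 of their group, while Hsd11b1 and Hsd17b2 were highest in the library with the lowest sum (2). In KO the library with the highest sum (10) had the highest Hsd3b2, Hsd3b3, Hsd3b7, Akr1d1 and Srd5a1, while the 30 h library (12), with the lowest sum, had the highest Akr1c6, Hsd17b6, Hsd11b1 and Hsd3b5 (0.379 CPM, against no count in library 10), and the part of the cell cycle state in these results was not tested.

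**Figure D4:**
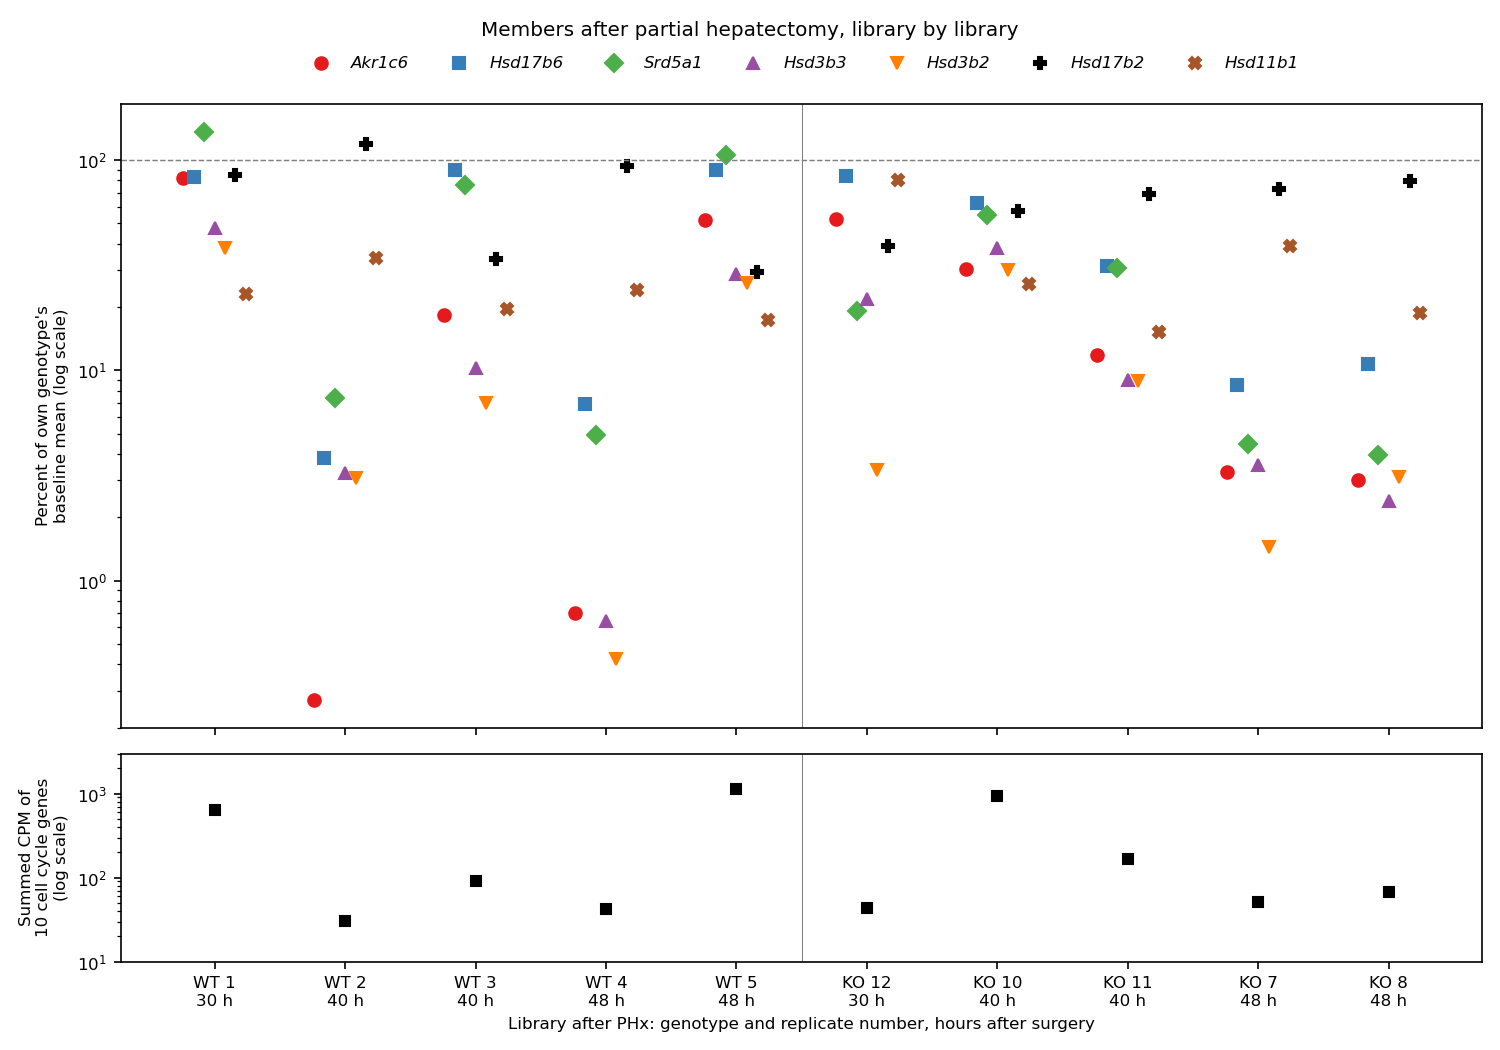
Upper panel: 7 members in the 10 libraries after PHx as percent of the baseline mean of their own genotype (log scale; dashed line at 100%; KO is EedHepKO), grouped by genotype and hours. Lower panel: summed CPM of 10 cell cycle genes (log scale); WT replicates 2 and 4 hold Akr1c6 at 0.271% and 0.698% and the lowest cell cycle sums of the WT group, while Hsd17b2 there is at 119% and 93.1%.

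Other genes of the families and pathways, listed by function, gave these counts. Of 8 tested among 13 further Hsd11b, Hsd17b and Hsd-like genes, 2 were lower in KO at baseline (median of the 8 -0.53, with Hsd17b4 at -0.64 ± 0.21 (SE) on the log2 scale, adjusted p = 0.0402, and Hsd17b12 at -0.54 ± 0.18, adjusted p = 0.0431), and 5 of 8 with the 10 baseline samples alone, beside 16% and 39.5% of all genes called. After PHx Hsd17b11, a lipid droplet enzyme, was higher in KO (1.36 ± 0.41, adjusted p = 0.0214), and Hsd17b13 and Hsd17b4 were lower (-0.92 ± 0.27, adjusted p = 0.0168, and -0.65 ± 0.21, adjusted p = 0.0269), beside 24.2% of all genes called. In the PHx response 1 of the 8 fell in WT and 2 in KO, no more than the shares of all genes called (20.1% and 29.5%). Of 8 tested among 10 further Srd5a and Akr1c genes, 1 was higher and 1 lower in KO at baseline (median of the 8 -0.49), beside 16% of all genes called. Akr1c18, an enzyme that inactivates progesterone, was higher, at 0.540 to 2.54 CPM against at most 0.206 in WT (adjusted p = 0.00771), and Akr1c12 was lower (-0.88 ± 0.21, adjusted p = 0.00604). With the 10 baseline samples alone 1 was higher and 5 were lower, beside the same 39.5%, Akr1c14 among them (-1.96 ± 0.23, adjusted p = 3.5e-05). After PHx 2 fell and 1 rose in WT, and 3 fell in KO, beside 20.1% and 29.5% of all genes called. Akr1c12 was down at -1.05 ± 0.21 in WT (adjusted p = 0.00189) and Akr1c13 at -1.11 ± 0.25 in KO (adjusted p = 0.004).

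Of 9 tested genes of bile acid synthesis, the pathway of Hsd3b7 and Akr1d1, 5 fell after PHx in WT (median -1.13) and 4 in KO (median -1.07), and none rose, beside 20.1% and 29.5% of all genes called in either direction. The others were not called in these comparisons. Cyp27a1, which oxidises the sterol side chain, fell in WT (log2 fold change -2.20 ± 0.42 (SE), adjusted p = 0.00158) and in KO (-1.93 ± 0.42, adjusted p = 0.00337). Baat, which conjugates bile acids to amino acids, was lower in KO at baseline (-0.80 ± 0.24, adjusted p = 0.0288) and after PHx (-1.71 ± 0.25, adjusted p = 6.49e-05), where 1 and 2 of the 9 were called, no larger a share than the 16% and 24.2% of all genes. With the 10 baseline samples alone 6 of the 9 were lower in KO, including Cyp8b1 (-1.99 ± 0.21, adjusted p = 1.9e-05) and Cyp7b1 (-1.61 ± 0.22, adjusted p = 0.000105). Of 9 tested genes of steroid conjugation and hydroxylation, 6 fell and 1 rose after PHx in each genotype (medians -1.27 in WT and -1.46 in KO), beside the same 20.1% and 29.5% of all genes. The gene that rose was Sult1e1, the estrogen sulfotransferase (5.68 ± 1.46 in KO, adjusted p = 0.0083). In WT (adjusted p = 0.00115) it was read at most 1 time per baseline library, so no fold is given. In KO 3 of the 9 were lower at baseline, among them Cyp2d9 (-1.07 ± 0.27, adjusted p = 0.00932) and Sult2a8 (-3.18 ± 0.83, adjusted p = 0.0123), and 3 after PHx, beside 16% and 24.2% of all genes. With the 10 baseline samples alone 5 of 8 tested were lower and 1 was higher, beside 39.5% of all genes.

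Patterns over the 20 libraries were compared by the mean absolute difference of centred log2(CPM + 1) values, with no test, among 12538 other genes with a mean of at least 1 CPM. The 5 genes nearest to Hsd3b5 were Elovl3 (1.02), Sult2a8 (1.02), Slco1a1 (1.1), Serpina4-ps1 (1.4) and Selenbp2 (1.45). Elovl3 had means of 890.2 CPM in WT at baseline, 54.8 in KO at baseline, 58.1 in WT after PHx and 0.719 in KO after PHx. Among the other members, Hsd3b7 was nearest to Cat (0.218), Hsd17b2 to Nudt16 (0.249), Akr1d1 to Aspg (0.275), Hsd11b1 to Macrod1 (0.283), Srd5a1 to Proz (0.299), Hsd17b6 to Ddah1 (0.342), Hsd3b3 to Gsta3 (0.353), Akr1c6 to Slco1b2 (0.367) and Hsd3b2 to Aox3 (0.464). This measure grows with a gene's own range, and Hsd3b5 was chosen for its fall. Its larger distances therefore do not show that the other members followed their nearest genes more closely. Among the members themselves, Hsd3b7 and Akr1d1 were nearest to each other (0.414), as were Srd5a1 and Hsd17b6 (0.496) and Hsd3b2 and Hsd3b3 (0.527). Hsd11b1 was nearest to Hsd3b7 (0.504), and the member nearest to Hsd3b5 was Hsd3b2 at 1.6. All genes share the libraries and their scaling.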

How the data were processed

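Poly(A) RNA from mouse liver was sequenced in pairs of reads, and the authors deposited raw counts per Ensembl gene, 1 file per library. Per the series' design text, quality was checked by FastQC 0.11.5, trimming was done by fastp 0.20.0, and reads with 1 position in mm10 were counted, while the submitters' processing notes also name Trimmomatic 0.36. The aligner, counting program, strand setting and annotation release are not given in the sources used here. Of 46603 identifiers, 46005 had a GENCODE M21 symbol. Totals of 21634890 to 30461351 counts per library set the counting precision.

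Groups and replicate numbers came from the labels, and each group held 5 mice. All 20 libraries entered 1 fit of edgeR 4.0.16 (R 4.3.3; TMM scaling, filterByExpr) with 4 group means, and quasi-likelihood tests were two-sided with Benjamini-Hochberg adjustment over 14661 genes. "Called" means an adjusted p under 0.05, SEs are the log2 fold change over the root of F, and every adjusted p in the text is from edgeR unless DESeq2 1.42.0 is named. The fit was also run on simulated counts drawn with the same spread in every group. Spread differed between the groups here, so that run does not check the fit under unequal spread. Figures and sequences were handled with Python 3.11.15, matplotlib 3.10.9 and Biopython 1.88. RPKM used merged exon length.

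The 10 enzymes and the gene lists were chosen with earlier results of these data known. All 10 passed the filter. Apart from cell type markers and lists named whole, genes named of a list were among the 4 with the lowest adjusted p in the contrast described, with a mean of at least 1 CPM. Genes compared by pattern were tested genes with that mean.

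Baseline and later lobes came from the same animal where the labels give both the same mouse number (9 mice, 18 libraries). Residuals of the same mouse correlated at 0.00666 to 0.0961 in WT and -0.0632 to 0.195 in KO, against -0.077 to 0.0891 and -0.229 to 0.285 between different mice. Alternatives were RLE or unscaled totals, DESeq2, 2 other count filters, hours after surgery as a term, the compared samples alone, the mouse as a block and leaving out each library. A fit without the 30 h libraries was added after the data were seen.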

Additional observations from a re-analysis of the deposited data

Results flagged for a closer look

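In each of the 9 members with a test and 4 groups, the library at either end was set against its neighbour, as the gap over the group's whole range (Dixon's ratio), and 3 of these 36 sets passed the 95% limit for 5 samples. Chance alone passes about 1 in 20. Hsd3b7 in WT after PHx had a ratio of 0.718, with 499 CPM in replicate 1, the 30 h library, against 231 in the next. Hsd3b2 in KO after PHx had a ratio of 0.737, from replicate 10 (40 h) at 8.01 CPM against 2.39. Srd5a1 in WT at baseline had a ratio of 0.752, from replicate 3 at 107.2 CPM against 120.9 in the next lowest.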

How the results depend on the processing

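Of 909 values of the 9 enzymes with a test under the alternatives, over 45 combinations of enzyme and comparison, 845 kept their direction and side of the threshold, 21 became called, 17 lost the call and 26 changed sign. Where no cause is named below, the cause was not tested. At baseline 8 of 9 members were called with only the samples compared, which leaves out the wide spread after PHx, against 0 otherwise. Between genotypes after PHx, 2 were called with DESeq2 and 2 with the time term. Leaving out 1 library gave 1 to 3 called in that comparison (3 without KO replicate 10), 3 to 4 for the response in WT and 5 to 6 in KO.

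Sign changes concerned values that were not called. Library size alone, which shifted the median of all genes by 0.478 at baseline and 0.378 after PHx, gave 0.05 for Akr1d1 at baseline and 0.0462 for Hsd11b1 after PHx between genotypes. Hsd17b2 after PHx was -0.00799 with no filter and -0.00158 with the time term, and -0.20 to 0.27 over the fits without 1 library. Hsd17b6 after PHx was -0.31 with the time term, -0.16 without the 30 h samples and -0.36 to 0.42 without 1 library. The replicate block, with the mouse as a term, dropped the pair of WT replicate 1 and left the counts of members called at 4 and 6 for the responses and 0 for their difference, and it changed no other call of a member. Under the block the difference of the responses was 1.65 for Akr1c6, 0.14 for Hsd17b2, 0.32 for Hsd17b6, 0.25 for Hsd3b2, 0.83 for Hsd3b3 and 1.66 for Hsd3b5, whose WT response was -8.89. Without the 30 h samples that difference was 0.0102 for Hsd17b2, 0.22 for Hsd3b2 and 0.30 for Hsd3b3. Without 1 library it was -1.34 to 0.18 for Akr1c6, -0.47 to 0.0658 for Hsd17b2, -1.82 to 0.0207 for Hsd3b2 and -0.99 to 0.47 for Hsd3b3. Depth limits Hsd3b5 in KO after PHx, where 2 libraries held no count.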

Other observations

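Hsd3b5 belongs to the genes with a sex bias in mouse liver, and all animals here were male. Of 14 male-biased genes tested, 6 were lower in KO at baseline and none higher, and 7 were lower and none higher after PHx, beside 16% and 24.2% of all genes called in either direction. With the 10 baseline samples alone 9 were lower and 1 was higher, beside 39.5% of all genes. Elovl3, a fatty acid elongase, was lower in KO at baseline (log2 fold change -4.02 ± 0.71 (SE), adjusted p = 0.000635) and after PHx (-6.38 ± 0.82, adjusted p = 2.1e-05). Serpina1e, a serine protease inhibitor, was lower too (-2.47 ± 0.43, adjusted p = 0.000581, and -2.94 ± 0.44, adjusted p = 8.94e-05). After PHx 11 of the 14 fell in WT and 13 in KO, beside 20.1% and 29.5% of all genes. Of 13 female-biased genes tested, 6 were higher in KO at baseline and 7 after PHx, and none was lower (8 of 11 higher with the 10 baseline samples alone). Prom1, which also marks bile duct cells, was higher in KO at baseline (4.21 ± 0.34, adjusted p = 3.21e-07). The sulfotransferase gene Sult2a1 had no count in the 5 WT baseline libraries and was 4.57 to 38.6 CPM in KO (adjusted p = 9.18e-07), and the cytochrome P450 gene Cyp2b9 was at most 0.300 CPM in WT and 1.36 to 25.7 in KO (adjusted p = 0.00408). The difference between the responses was called for 0 genes of either list. The cholangiocyte marker sum was 34.1 to 79.2 CPM in WT and 74.5 to 386 CPM in KO at baseline, and its part in these values was not tested.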
